A study of Mus musculus with 6 samples.

Results

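The genes described here are 34 genes of cholesterol handling, given by name, which are the enzymes of cholesterol synthesis, the sterol sensing system of SREBP2, and the nuclear receptor LXR with its targets. Each of the 34 symbols stood on 1 identifier of the 46072 in the table, and all 34 passed the filter on low counts, with between 141 and 119610 estimated counts in a library, which stand for about 53 to 44854 fragments. By role they comprise 18 synthesis enzymes, 6 genes of the SREBP system, 7 genes of LXR signalling and efflux, and 3 genes of cholesterol storage and lysosomal export. The comparison asked how the synthesis genes stood against the efflux and LXR target genes after the vancomycin protocol.

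Cells make cholesterol from acetyl-CoA through mevalonate, squalene and lanosterol. When the membrane of the endoplasmic reticulum is low in cholesterol, SCAP carries SREBP2 to the Golgi, where it is cut and released to the nucleus to switch on the synthesis genes, and INSIG proteins hold the complex back when sterol is plentiful. Oxysterols and the sterol intermediate desmosterol activate LXR, which switches on the exporters ABCA1 and ABCG1, so that macrophages and monocytes usually move the programs of synthesis and efflux in opposite directions.

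RNA sequencing was performed on monocytes taken from the spleens of female C57BL/6 mice by magnetic bead negative selection, without stimulation in culture. The Van group (n = 3) received vancomycin by oral gavage at 2 mg per mouse per day, in gavages of 1 mg, for 6 days and was then left without antibiotic, for 6 to 8 days per the labels and for 8 days per the study's account of the RNA experiment. The Con group (n = 3) received water by gavage with the same timing. Another group of the study, which also received the lipid L654, was not analysed here. The 3 mice of a group gave 3 libraries, 1 for each mouse.

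The libraries held between 43.4M and 61.8M estimated counts, which overstate the fragments sequenced (about 16.3M to 23.2M), and no library was a copy of another. Between the groups, 322 of 16138 identifiers were called at an adjusted p-value of at most 0.05 by edgeR's quasi-likelihood test (174 higher and 148 lower in Van). The summed level of 12 monocyte markers was between 22423 and 23538 CPM (counts scaled to library size) in Con and between 21449 and 22626 CPM in Van, with Ccr2 and Fcgr1 called lower. The 12 red pulp macrophage markers summed to between 3967 and 4709 CPM in Con and between 4592 and 5977 CPM in Van. Of these 12, 10 had a positive log2 fold change, and 5 (41.7%) had an unadjusted p below 0.05, led by Vcam1 and C1qb, against 16.5% of all identifiers, while none was called. The 7 erythroid markers in the table summed to between 62.8 and 127 CPM in Con and between 214 and 473 CPM in Van, with Hbb-bs, Hbb-bt, Hba-a1 and Alas2 called higher. Summed levels of the 8 B cell markers were between 624 and 717 CPM in Con and between 459 and 506 CPM in Van, with Ighm called lower, and those of the 8 dendritic cell markers were between 164 and 186 CPM in Con and between 156 and 178 CPM in Van, with Clec9a called lower. T cell, NK cell and neutrophil markers summed to at most 24.9, 7.15 and 91.9 CPM in any library, and Ly6g was at 0 in all 6. The 8 cycling markers summed to between 205 and 231 CPM in Con and between 186 and 260 CPM in Van, and none was called. Among markers that were not called, those with the smallest unadjusted p below 0.05 in the other lists were Itgam and Ly6c2 (monocytes), Ighd (B cells), Il7r and Cd3d (T cells), Retnlg (neutrophils) and Xcr1 and Batf3 (dendritic cells), with lower values in Van, and Slc4a1 (erythroid cells), with a higher value. Among markers tested, the monocyte list held 8 genes with lower and 4 with higher values, the dendritic cell list 6 and 2, the T cell list 5 and 3, and the neutrophil list 5 and 1. Of the monocyte and dendritic cell genes, Treml4 and Flt3, named after their values were seen, were the ones with higher values at an unadjusted p below 0.05. The part of these shifts in the results on the cholesterol genes was not tested, and in RNA from bulk cells fewer cells of a type and less RNA per cell cannot be told apart.

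One Con library stood apart from the other two on the synthesis genes. Con 2 had the lowest CPM of the 3 Con libraries for 15 of the 18 enzymes. For 9 enzymes its value was within the range of the 3 Van libraries and for 5 it was below all of them. In the Van group, Van 3 was the lowest of the 3 libraries for 12 of the 18 enzymes and Van 1 the highest for 13. Values are therefore also given without Con 2, for the genes below wherever its removal moved the fold change by over 1.5 times or across an unadjusted p of 0.05. Con 2 was picked for its low values on these same enzymes. Leaving it out raises the Con mean of those 15 enzymes, so these values are no independent support for lower synthesis genes in Van.

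Promoter sequence is shown for 5 genes of the synthesis side whose values are described below, and for the LXR alpha gene as an example from the other side. SREBP2 is known to work at sterol regulatory elements together with the factors NF-Y and Sp1. Windows of 250 bases before to 50 bases after the start site were taken from RefSeq (GRCm38.p6), in which 28 of the 34 genes had a window, and Npc1, Sqle, Fdft1, Abcg1, Stard4 and Fdps had none. On both strands, the letters TCACNCCAC (sterol regulatory element) were found in 1 of the 28 genes, against 1.44% of the 27025 symbols with a window. CCAAT (NF-Y) was found in 22 of the 28 genes (78.6%) and in 14 of 15 enzymes, against 41.1% of all. GGGCGG (Sp1) was found in 24 of the 28 genes (85.7%) and in 14 of 15 enzymes, against 38.2% of all. CACGTG (E-box) was found in 6 of the 28 genes (21.4%), against 8.09% of all. The direct repeat bound by LXR, with each repeat spelled AGGTCA or AGTTCA and 4 bases between, was found in none of the 28 genes and in 0.0296% of all. A match in letters is a description and not a binding site. The stretches below leave out annotated exons and run 5′ to 3′ on the strand of the gene, with these letters in capitals, so that CCAAT on the other strand reads ATTGG and GGGCGG reads CCGCCC. The Hmgcs1 stretch (chr13:119690101-119690350, plus strand) held the 1 sterol regulatory element, with 3 CCAAT and 2 GGGCGG matches. That of Hsd17b7 (chr1:169969242-169969408, minus strand) held 2 CCAAT, 2 GGGCGG and 1 CACGTG, and exons of 3110045C21Rik lie in the same window. The stretch of Sc5d (chr9:42264301-42264550, minus strand) held 1 CCAAT, 2 GGGCGG and 1 CACGTG. In Insig1 (chr5:28071162-28071362, plus strand) there were 1 CCAAT, 3 GGGCGG and 1 CACGTG. In Mvd (chr8:122443423-122443672, minus strand), one of the 4 enzymes with a positive fold change, there were 2 CCAAT and 1 GGGCGG. The stretch of Nr1h3 (chr2:91195152-91195366, minus strand), from 1 of its 2 windows, lies at a start site within the annotated gene and held none of the letters searched.
Hmgcs1: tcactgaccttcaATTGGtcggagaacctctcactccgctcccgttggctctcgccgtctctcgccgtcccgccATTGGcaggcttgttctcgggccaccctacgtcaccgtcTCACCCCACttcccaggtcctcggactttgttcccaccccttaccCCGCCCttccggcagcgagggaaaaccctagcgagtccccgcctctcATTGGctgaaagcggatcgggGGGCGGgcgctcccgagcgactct
Hsd17b7: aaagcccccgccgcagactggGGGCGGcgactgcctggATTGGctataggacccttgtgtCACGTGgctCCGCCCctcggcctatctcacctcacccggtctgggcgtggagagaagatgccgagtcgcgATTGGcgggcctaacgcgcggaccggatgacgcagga
Sc5d: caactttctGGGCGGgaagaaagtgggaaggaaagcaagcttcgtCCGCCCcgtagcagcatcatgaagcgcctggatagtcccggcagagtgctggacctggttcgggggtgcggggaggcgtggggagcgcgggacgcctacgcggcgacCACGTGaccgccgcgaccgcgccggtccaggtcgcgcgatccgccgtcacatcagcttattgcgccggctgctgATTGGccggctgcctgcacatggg
Insig1: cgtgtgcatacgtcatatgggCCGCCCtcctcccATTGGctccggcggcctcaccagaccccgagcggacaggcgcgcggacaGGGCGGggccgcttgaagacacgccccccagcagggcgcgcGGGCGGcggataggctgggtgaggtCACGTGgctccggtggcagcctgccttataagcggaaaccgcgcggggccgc
Mvd: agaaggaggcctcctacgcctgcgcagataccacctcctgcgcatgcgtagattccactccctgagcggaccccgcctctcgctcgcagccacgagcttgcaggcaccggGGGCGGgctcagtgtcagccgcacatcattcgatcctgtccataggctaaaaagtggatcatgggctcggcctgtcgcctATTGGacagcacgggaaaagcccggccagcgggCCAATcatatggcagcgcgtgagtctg
Nr1h3: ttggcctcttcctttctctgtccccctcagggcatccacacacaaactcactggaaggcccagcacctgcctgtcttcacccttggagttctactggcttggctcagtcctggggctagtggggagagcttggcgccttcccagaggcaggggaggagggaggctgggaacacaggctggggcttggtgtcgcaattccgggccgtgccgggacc

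Compared per length of transcript, the 34 genes spanned a wide range. Mean FPKM (fragments scaled to transcript length and library size) in Con was 1232 for Apoe, a secreted apolipoprotein of macrophages, and 179.96 for Npc2, the sterol carrier of the lysosome. Nr1h2, the LXR beta gene, had 63.8 FPKM and Nr1h3, the LXR alpha gene, 37.4 FPKM. Between them lay Insig1 with 48.6 FPKM and Srebf2 with 42.2 FPKM, while Srebf1 had 16.4 FPKM. Abcg1 stood at 36.4 FPKM and Abca1 at 4.24 FPKM. Among the 18 enzymes, Fdps had the highest mean with 17.7 FPKM and Hsd17b7 the lowest with 0.836 FPKM.

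**Figure D1:**
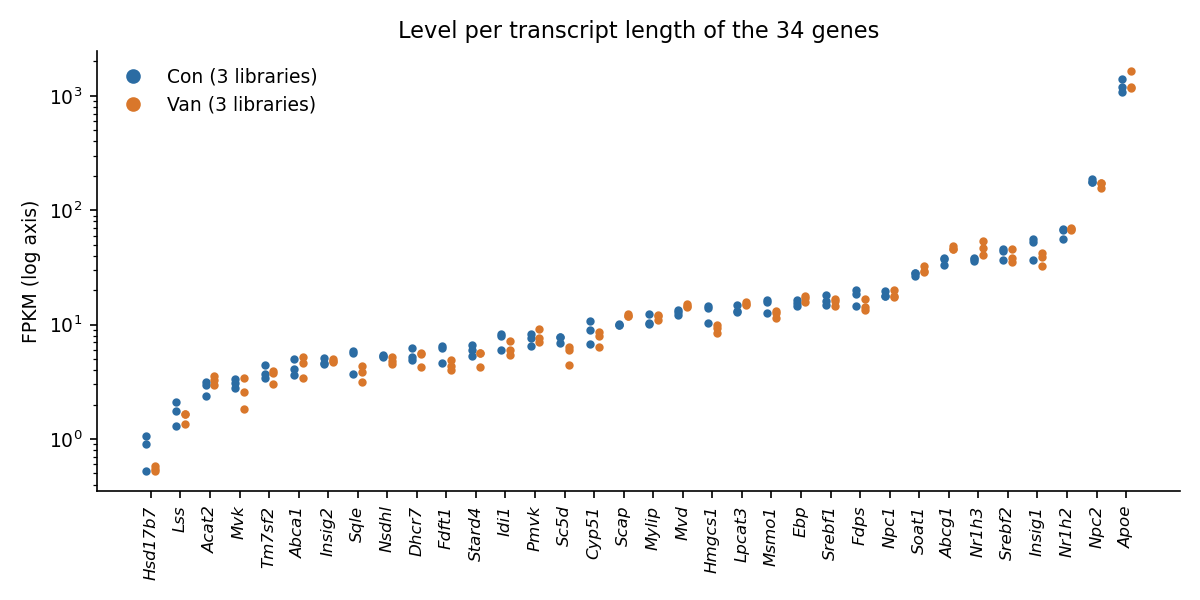
Level per transcript length (FPKM, log axis) of the 34 genes in the 3 Con and 3 Van libraries, ordered by the mean of the Con libraries, with 1 point per library. Apoe (mean of 1232 FPKM in Con) and Npc2 stood above all other genes, and Hsd17b7 (mean of 0.836 FPKM in Con) was lowest.

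In Van compared to Con, genes of cholesterol synthesis had mostly lower values. Genes of LXR signalling and efflux had positive log2 fold changes, with groups that overlapped for all but Abcg1 and Nr1h3. Differences in single genes mostly did not pass the tests. None of the 34 genes was called by edgeR at an adjusted p of at most 0.05, against 2.00% of all identifiers tested. At an unadjusted p below 0.05 there were 10 of the 34 genes (29.4%), against 16.5% of all identifiers. Lower in Van among these were 6 genes, namely Hmgcs1, Fdft1, Msmo1, Hsd17b7, Sc5d and Insig1, against 8.14% of all identifiers. Higher in Van were 4 genes, namely Mvd, Scap, Nr1h3 and Abcg1, against 8.37% of all identifiers. The Con and Van libraries did not overlap for 3 genes with lower values in Van (Hmgcs1, Msmo1 and Sc5d), against 11.0% of all identifiers, and for 5 genes with higher values (Mvd, Scap, Nr1h3, Abcg1 and Soat1), against 11.5%. DESeq2's Wald test, used by the study, called 5 of the 34 genes (Hmgcs1, Sc5d, Scap, Nr1h3 and Abcg1), against 7.36% of the 13063 identifiers to which it gave an adjusted p. The same 5 genes had an unadjusted edgeR p below 0.05 in all 6 fits with 1 library left out. Without Con 2, edgeR called 1 gene (Hmgcs1) and 15 of the 34 genes had an unadjusted p below 0.05, 11 of them lower. Without Van 1 there were also 15 (11 lower). Without Con 1 there were 6 (2 lower), without Con 3 or Van 3 there were 5 (2 lower) and without Van 2 there were 6 (3 lower). For a single gene, the exact two-sided permutation test of 3 libraries against 3 cannot go below 0.10, which is the value of each gene whose groups did not overlap.

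**Figure D2:**
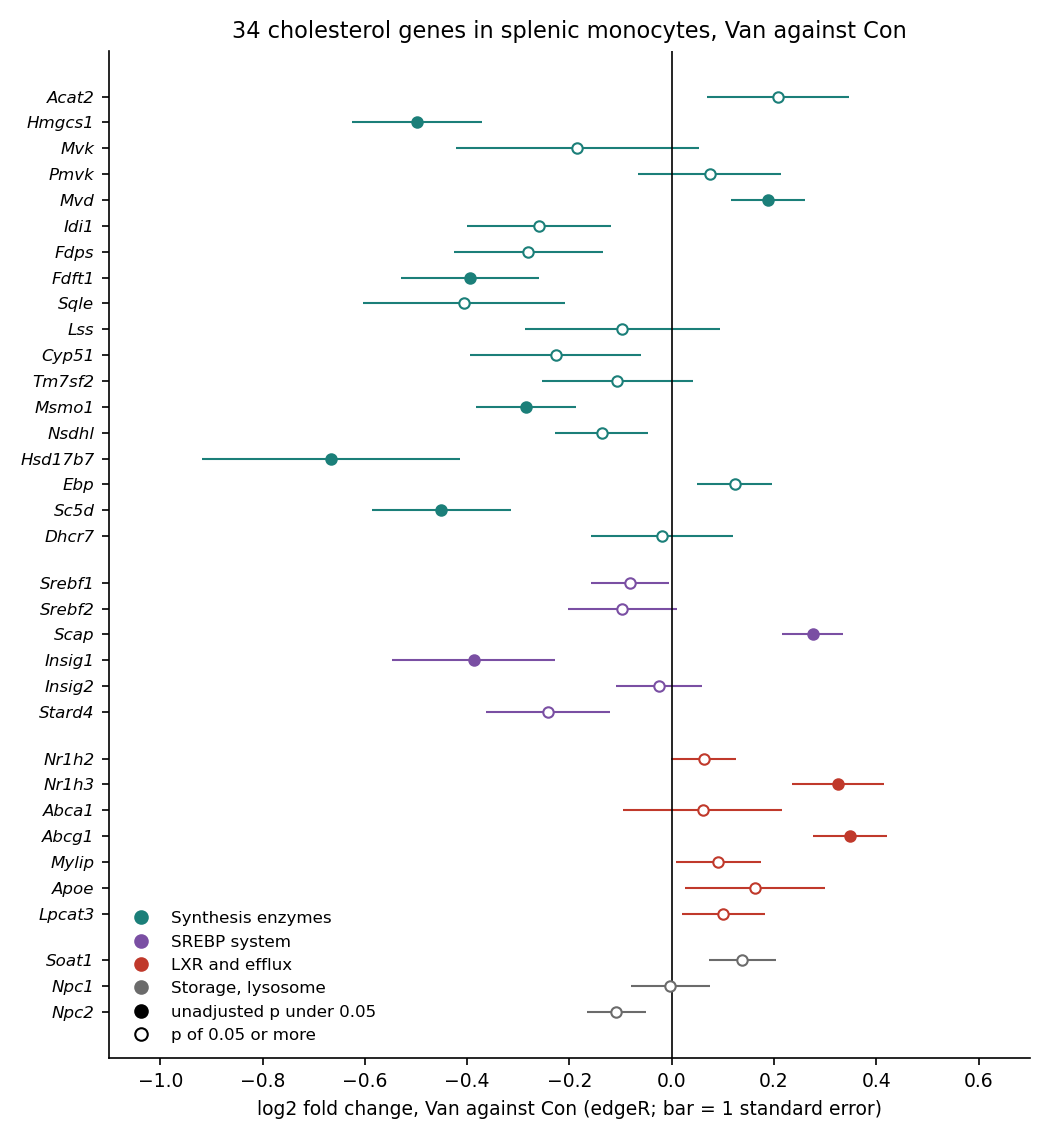
Log2 fold change of Van against Con (edgeR, x axis) of the 34 genes by role and, for the enzymes, in the order of the pathway, with bars of 1 standard error and filled points at an unadjusted p below 0.05. Of the 18 enzymes, 14 lie left of 0, and all 7 genes of LXR and efflux lie right of it, although Abca1 and Apoe change sign when Van 2 is left out and Abca1 also without Con 2.

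Among the 18 synthesis enzymes, 14 had a negative and 4 a positive log2 fold change, and the median was -0.21, where the median of all identifiers tested was -0.0014 and 50.4% were negative. Without Con 2 the median of the enzymes was -0.33 and 15 were negative. With another single library left out, between 12 and 15 enzymes were negative, and the median lay between -0.33 (without Van 1) and -0.17 (without Con 3 or Van 3). Of the 6 enzymes with an unadjusted p below 0.05, 5 were lower in Van and 1 was higher.

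The early enzymes lead from acetyl-CoA through mevalonate to the isoprenoid units. Hmgcs1 encodes the synthase that makes HMG-CoA from acetyl-CoA units (chr13:119690379-119708260). The values were 57.2, 40.1 and 52.8 CPM in Con and 38.1, 35.6 and 32.5 CPM in Van. Every Van value was lower than every Con value, with Con 2 nearest to the Van group. The log2 fold change was -0.50 ± 0.13 (SE), with an edgeR adjusted p of 0.093 (unadjusted 0.0039), and DESeq2 gave an adjusted p of 0.0061. Without Con 2 its log2 fold change was -0.64 (edgeR adjusted p = 0.045), and it was -0.39 without Con 1. Across the fits with 1 library left out, its edgeR adjusted p lay between 0.045 and 0.269. The exons of Hmgcs1 overlap those of Gm48342 on the opposite strand. Idi1, the isomerase of the isoprenoid units, shares sequence with 2 other genes. CPM values of 28.7, 20.98 and 27.7 were found in Con and of 24.8, 20.9 and 18.8 in Van. Con 2 lay among the Van libraries, and the groups overlapped. This gave a log2 fold change of -0.26 ± 0.14 (SE), at an edgeR adjusted p of 0.409 (unadjusted 0.10), and without Con 2 the log2 fold change was -0.39 (edgeR adjusted p = 0.209, unadjusted 0.013), whereas it was -0.17 without Van 3. Mvd, which decarboxylates mevalonate pyrophosphate, had values in the other direction. In Con it had 28.5, 27.4 and 25.1 CPM and in Van 30.3, 31.4 and 30.6 CPM. All 3 Van values were higher than all 3 Con values. By edgeR the log2 fold change was 0.19 ± 0.07 (SE) and the adjusted p 0.237 (unadjusted 0.028), and without Con 2 the log2 fold change was 0.20. The other early enzymes, Acat2, Mvk, Pmvk and Fdps, had log2 fold changes of 0.21, -0.18, 0.07 and -0.28, none with an unadjusted p below 0.05. With single libraries left out, the log2 fold change of Mvk lay between -0.47 and 0.03 (positive without Van 2). Without Con 2, Fdps had one of -0.41 (edgeR adjusted p = 0.209, unadjusted 0.014) but one of -0.18 without Con 1, Acat2 one of 0.10 and Pmvk one of -0.016. With single libraries left out, the unadjusted edgeR p reached 0.290 for Idi1, 0.087 for Mvd and 0.278 for Fdps. Acat2 and Fdps share long stretches of transcript with near-identical genes.

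The middle of the pathway joins the isoprenoid units into squalene and closes the ring. Fdft1 encodes squalene synthase, the first enzyme committed to sterols. The 3 Con libraries had 21.6, 16.03 and 21.7 CPM and the 3 Van libraries 16.8, 14.5 and 13.7 CPM. The 3 Van values were lower than those of Con 1 and Con 3, while Con 2 was below Van 1. At an edgeR adjusted p of 0.196 (unadjusted 0.018), the log2 fold change was -0.39 ± 0.14 (SE). Leaving out Con 2 gave a log2 fold change of -0.53 (edgeR adjusted p = 0.098), and it was -0.32 without Con 3. Fdft1 shares transcript sequence with Gm6781 and overlaps Ctsb on the opposite strand. Sqle, the squalene epoxidase, is a rate-limiting oxygenase of the pathway. Its levels were 19.6, 12.3 and 19.3 CPM in Con, compared to 15.3, 12.8 and 10.4 CPM in Van. Here Con 2 was lower than Van 1 and Van 2. EdgeR gave a log2 fold change of -0.41 ± 0.20 (SE) and an adjusted p of 0.355 (unadjusted 0.072), and without Con 2 the log2 fold change was -0.60 (edgeR adjusted p = 0.151, unadjusted 0.0057), whereas it was -0.27 without Van 3. Across the fits with 1 library left out, the unadjusted edgeR p reached 0.221 for Sqle and 0.071 for Fdft1. Lss, the cyclase that makes lanosterol, had a log2 fold change of -0.10, and of -0.27 without Con 2 (edgeR adjusted p = 0.497) but 0.06 without Con 3.

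The late enzymes trim lanosterol to cholesterol. Msmo1 encodes the C4 methyl oxidase. The values were 39.7, 31.8 and 39.4 CPM in Con and 31.7, 30.8 and 28.4 CPM in Van. The groups did not overlap, but Con 2 and Van 1 differed by less than 1 CPM. The log2 fold change was -0.29 ± 0.10 (SE), with an edgeR adjusted p of 0.194 (unadjusted 0.018). When Con 2 was left out, the log2 fold change was -0.38 (edgeR adjusted p = 0.097), and it was -0.23 without Con 1. Hsd17b7 encodes the 3-keto reductase of the C4 demethylation, and by edgeR it had the largest log2 fold change in size among the 34 genes. With limma on log2(FPKM + 1) it had one of -0.21, against -0.45 for Hmgcs1. CPM values of 4.88, 2.87 and 5.69 were found in Con and of 3.04, 2.90 and 2.50 in Van. Con 1 and Con 3 stood apart from the 4 other libraries, and Con 2 was among the Van values. This gave a log2 fold change of -0.67 ± 0.25 (SE), at an edgeR adjusted p of 0.237 (unadjusted 0.028). Without Con 2 its log2 fold change was -0.91 (edgeR adjusted p = 0.095), and it was -0.45 without Con 3. Sc5d encodes the C5 desaturase of the sterol ring (chr9:42251595-42264256). In Con it had 21.4, 18.8 and 20.6 CPM and in Van 16.1, 16.7 and 11.7 CPM. All 3 Con values, Con 2 included, were higher than all 3 Van values, and Van 3 was the lowest. By edgeR the log2 fold change was -0.45 ± 0.14 (SE) and the adjusted p 0.144 (unadjusted 0.0096), and DESeq2 gave an adjusted p of 0.046. Leaving out Con 2 gave a log2 fold change of -0.50 (edgeR adjusted p = 0.204), and it was -0.30 without Van 3. Cyp51, Tm7sf2, Nsdhl and Dhcr7 had log2 fold changes between -0.23 and -0.02, and Ebp, the sterol isomerase, had one of 0.12. Leaving out single libraries gave between -0.18 and -0.02 for Tm7sf2 and between -0.20 and -0.09 for Nsdhl. None of Cyp51, Tm7sf2, Nsdhl, Dhcr7 and Ebp had an unadjusted p below 0.05, but without Con 2 Cyp51 had a log2 fold change of -0.38 (edgeR adjusted p = 0.289, unadjusted 0.030) and Dhcr7 one of -0.08. These were -0.06 without Con 1 and 0.11 without Van 3, respectively. With single libraries left out, the unadjusted edgeR p reached 0.068 for Msmo1, 0.117 for Hsd17b7 and 0.718 for Cyp51. Exons of Tm7sf2 overlap those of Vps51 on the same strand, exons of Cyp51 overlap those of Akap9 on the opposite strand, and Msmo1 and Dhcr7 share stretches of transcript with 6 and 15 other genes.

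**Figure D3:**
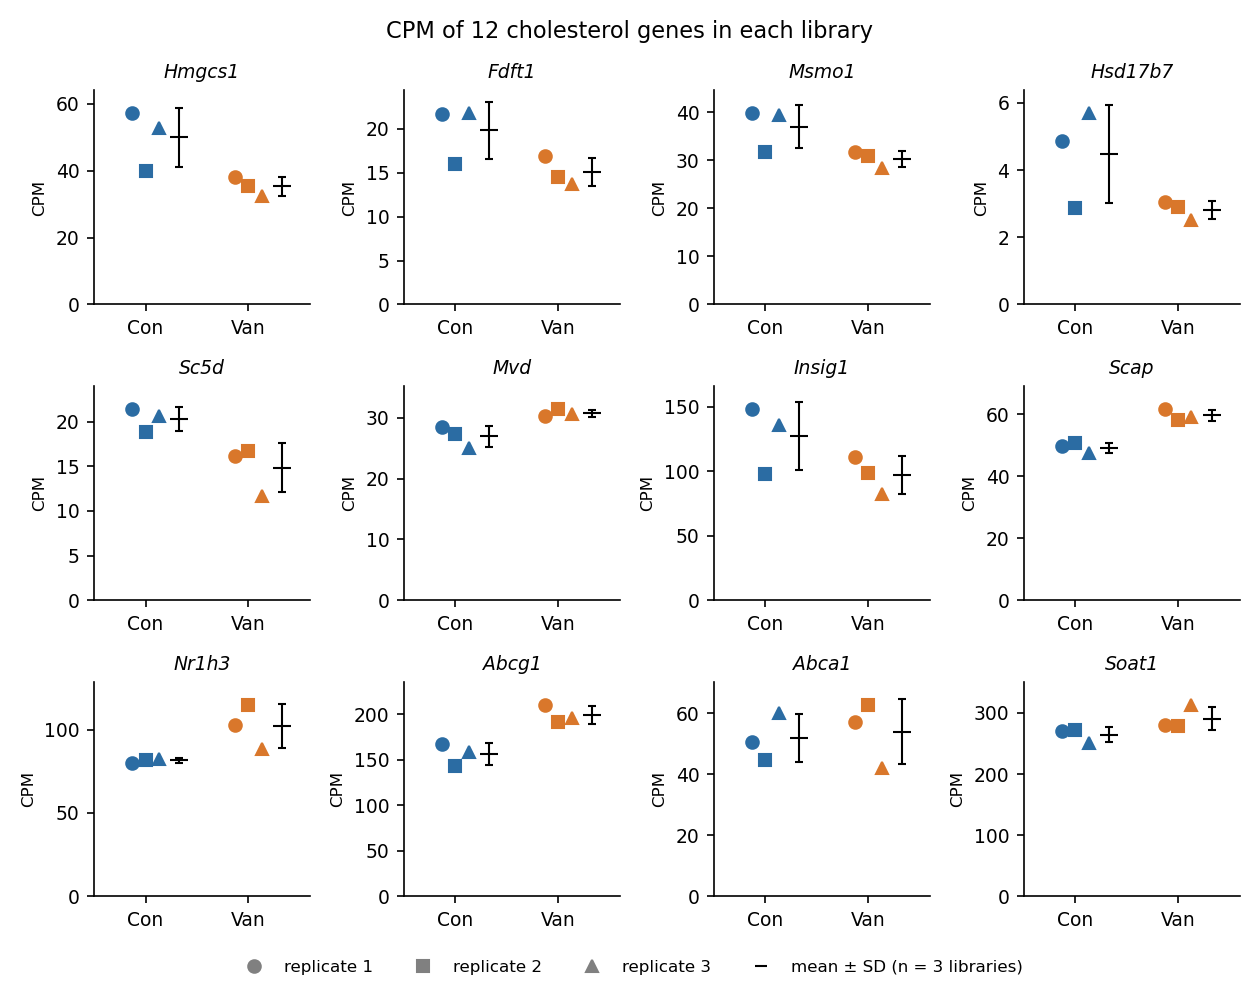
CPM in each of the 3 Con and 3 Van libraries for 12 of the genes, with 1 marker shape per replicate number and the mean ± SD (n = 3) beside the points. Con 2 (square) is near the Van values for Fdft1, Msmo1, Hsd17b7 and Insig1, whereas the groups are apart for Sc5d, Scap, Nr1h3 and Abcg1.

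In the SREBP system, the 2 transcription factor genes had small differences, and the sensor Scap and the retention factor Insig1 had log2 fold changes of opposite sign. Srebf2 encodes SREBP2 itself. The 3 Con libraries had 264, 223 and 269 CPM and the 3 Van libraries 272, 224 and 211 CPM. In both groups the libraries ranged widely, with Con 2 near Van 2. At an edgeR adjusted p of 0.729 (unadjusted 0.389), the log2 fold change was -0.10 ± 0.11 (SE), and without Con 2 the log2 fold change was -0.18 (edgeR adjusted p = 0.520), whereas it was -0.02 without Van 3. Srebf1 encodes SREBP1, whose SREBP1c form is an LXR target with a role in fatty acid synthesis. Its levels were 71.9, 73.99 and 83.7 CPM in Con, compared to 74.3, 74.7 and 68.1 CPM in Van. The groups overlapped. EdgeR gave a log2 fold change of -0.08 ± 0.08 (SE) and an adjusted p of 0.667 (unadjusted 0.312). With single libraries left out, it lay between -0.13 (without Con 1) and -0.0095 (without Con 3). Scap encodes the escort protein of SREBP (chr9:110333288-110384950). The values were 49.7, 50.5 and 47.5 CPM in Con and 61.6, 58.3 and 58.96 CPM in Van. The lowest Van library was above the highest Con library, and the values within each group lay close together. The log2 fold change was 0.28 ± 0.06 (SE), with an edgeR adjusted p of 0.058 (unadjusted 0.0014), the smallest adjusted p among the genes of the SREBP system, and DESeq2 gave 0.0042. When Con 2 was left out, the log2 fold change was 0.30 (edgeR adjusted p = 0.122), and it was 0.25 without Van 1. The exons of Scap overlap those of 5830462I19Rik on the opposite strand. Insig1 retains SCAP in the endoplasmic reticulum and is itself a target of SREBP2. CPM values of 148, 97.5 and 136 were found in Con and of 111, 98.5 and 82.01 in Van. Con 1 and Con 3 were higher than all Van libraries, and Con 2 was among them. This gave a log2 fold change of -0.39 ± 0.16 (SE), at an edgeR adjusted p of 0.277 (unadjusted 0.040). Without Con 2 its log2 fold change was -0.55 (edgeR adjusted p = 0.111), and it was -0.27 without Con 1. The unadjusted edgeR p of Insig1 reached 0.152 with single libraries left out. Stard4, a carrier of cholesterol between membranes that SREBP2 also switches on, had a similar order of libraries. In Con it had 35.9, 30.7 and 37.4 CPM and in Van 32.5, 31.2 and 24.3 CPM. Con 2 was lower than Van 1 and Van 2. By edgeR the log2 fold change was -0.24 ± 0.12 (SE) and the adjusted p 0.371 (unadjusted 0.080), and without Con 2 the log2 fold change was -0.32 (edgeR adjusted p = 0.313, unadjusted 0.037), whereas it was -0.12 without Van 3. The unadjusted edgeR p of Stard4 reached 0.258 with single libraries left out. Insig2, the second retention factor, had a log2 fold change of -0.02, and of 0.02 without Con 2.

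All 7 genes of LXR signalling and efflux had a positive log2 fold change, with a median of 0.10 (0.07 without Con 2, 0.18 without Con 3 and 0.21 without Van 3), of which Abca1 became negative without Con 2 or without Van 2 and Apoe became negative without Van 2. Abcg1 encodes the exporter that passes cholesterol to HDL particles (chr17:31057675-31117988). The 3 Con libraries had 168, 143 and 159 CPM and the 3 Van libraries 210.4, 192 and 196 CPM. Each Van library was above each Con library. At an edgeR adjusted p of 0.051 (unadjusted 0.0011), the log2 fold change was 0.35 ± 0.07 (SE). This was the smallest edgeR adjusted p of the 34 genes, and DESeq2 gave an adjusted p of 6.6e-04. Leaving out Con 2 gave a log2 fold change of 0.29 (edgeR adjusted p = 0.125). No overlapping exon or near-identical transcript was found for Abcg1. Nr1h3 encodes LXR alpha (chr2:91184061-91202834). Its levels were 80.2, 81.8 and 82.6 CPM in Con, compared to 103, 115 and 88.7 CPM in Van. The 3 Con values lay within 3 CPM of each other, and the 3 Van values were higher and more spread. EdgeR gave a log2 fold change of 0.33 ± 0.09 (SE) and an adjusted p of 0.115 (unadjusted 0.0062), and DESeq2 gave an adjusted p of 0.020. When Con 2 was left out, the log2 fold change was 0.33 (edgeR adjusted p = 0.239), and it was 0.23 without Van 2. Exons of Gm13783 overlap those of Nr1h3 on the same strand.

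The other LXR genes had smaller differences. Nr1h2 encodes LXR beta. The values were 131, 115 and 126 CPM in Con and 130.2, 131 and 127 CPM in Van. Con 2 was lowest and the other 5 libraries were close together. The log2 fold change was 0.06 ± 0.06 (SE), with an edgeR adjusted p of 0.702 (unadjusted 0.352), and without Con 2 the log2 fold change was 0.0097. Abca1, the exporter that loads cholesterol on apolipoprotein A-I, is a classical LXR target. CPM values of 50.6, 44.5 and 60.1 were found in Con and of 57.1, 62.6 and 42.03 in Van. Van 2 was the highest and Van 3 the lowest of the 6 libraries. This gave a log2 fold change of 0.06 ± 0.16 (SE), at an edgeR adjusted p of 0.901 (unadjusted 0.705), and without Con 2 the log2 fold change was -0.04. The difference between Abca1 and Abcg1 was not tested. Mylip encodes IDOL, the ubiquitin ligase that removes lipoprotein receptors from the cell surface. In Con it had 37.2, 38.1 and 44.4 CPM and in Van 44.4, 42.8 and 40.2 CPM. Con 3 was level with Van 1, the highest Van library. By edgeR the log2 fold change was 0.09 ± 0.08 (SE) and the adjusted p 0.661 (unadjusted 0.305), and without Con 2 the log2 fold change was 0.06, against 0.04 without Con 1 and 0.18 without Con 3. Apoe is the most abundant of the 34 genes. The 3 Con libraries had 1563, 1617 and 1979 CPM and the 3 Van libraries 1768, 2346 and 1659 CPM. Van 2 was the highest library, and Con 3 was higher than the other 2 Van libraries. At an edgeR adjusted p of 0.629 (unadjusted 0.269), the log2 fold change was 0.16 ± 0.14 (SE). Van 2 was also the library with the highest summed red pulp macrophage markers (5977 CPM), a cell type known for its Apoe, and the part of these cells in the values of Apoe was not tested. Lpcat3, which builds polyunsaturated phospholipids, had a log2 fold change of 0.10, and of between 0.05 (without Van 3) and 0.17 (without Con 1) with single libraries left out.

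The 3 genes of storage and lysosomal export had a median log2 fold change of -0.0029. Soat1 encodes the acyltransferase that makes cholesterol esters for lipid droplets. Its levels were 271, 272 and 251 CPM in Con, compared to 281, 279 and 313 CPM in Van. The groups did not overlap, and Van 3 was the highest. EdgeR gave a log2 fold change of 0.14 ± 0.07 (SE) and an adjusted p of 0.341 (unadjusted 0.066), and without Van 3 the log2 fold change was 0.08. Npc1 and Npc2, the pair that passes cholesterol out of the lysosome, had log2 fold changes of -0.0029 and -0.11, and neither had an unadjusted p below 0.05. Without Con 2 the log2 fold change of Npc1 was -0.03, and that of Npc2 without Van 1 was -0.07.

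The synthesis side and the LXR side were then set against each other. The synthesis side took the 18 enzymes with Insig1, Stard4, Npc1 and Npc2, and 18 of its 22 genes had a negative log2 fold change, with a median of -0.21. Leaving out 1 library gave medians between -0.32 (without Van 1) and -0.15 (without Van 3), and -0.30 without Con 2. The LXR side took Abca1, Abcg1, Mylip, Apoe, Lpcat3 and Srebf1, and 5 of its 6 genes had a positive log2 fold change, with a median of 0.10. With 1 library left out, this median lay between 0.04 (without Van 2) and 0.18 (without Con 3), and it was 0.06 without Con 2 and 0.17 without Van 3. The medians differed by -0.30 on the log2 scale, and by between -0.40 and -0.22 when single libraries were left out (-0.36 without Con 2). No test was run over the genes, which are not replicates.

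In single libraries, the mean log2 CPM of the 18 enzymes, centred on the mean of the 6 libraries for each gene, was 0.21 in Con 1, -0.13 in Con 2 and 0.20 in Con 3, and 0.05 in Van 1, -0.12 in Van 2 and -0.21 in Van 3. Con 2 thus stood at the level of Van 2, and the groups overlapped. On the LXR side the values were -0.07, -0.15 and 0.06 in Con and 0.08, 0.13 and -0.05 in Van, with Con 3 above Van 3. Con 2 was the lowest of the 6 libraries on the LXR side. The synthesis side minus the LXR side was 0.28, 0.04 and 0.13 in Con (mean of 0.15 ± 0.12, SD, n = 3) and -0.05, -0.25 and -0.15 in Van (mean of -0.15 ± 0.10, SD, n = 3). On this difference all 3 Con libraries were above all 3 Van libraries, with Con 2 (0.04) and Van 1 (-0.05) nearest to each other. For single identifiers, the groups were apart with lower values in Van for 11.0% and with higher values for 11.5%. The lists were chosen with earlier results of these data known, and the difference was not tested.

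**Figure D4:**
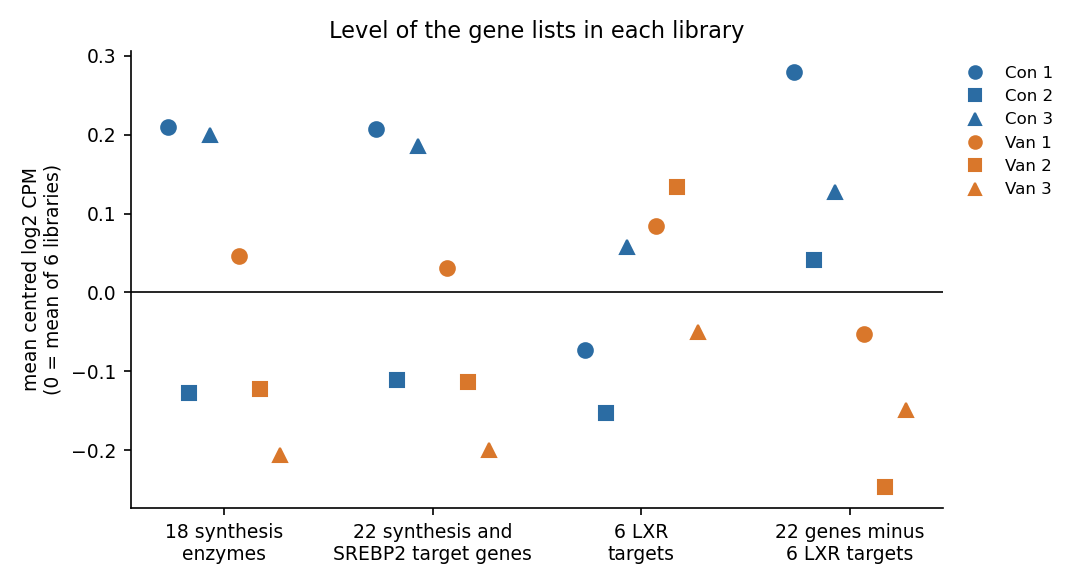
Mean centred log2 CPM (y axis, 0 is the mean of the 6 libraries) of the 18 enzymes, the 22 genes of the synthesis side, the 6 LXR targets, and the synthesis side minus the LXR targets, with 1 point per library. Con 2 is at -0.13 for the enzymes, beside Van 2 at -0.12, and the 3 Con libraries are above the 3 Van libraries on the difference, from 0.04 upwards against -0.05 and below.

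Of 73 further genes on 5 lists of related pathways, 70 were tested. Of these, 1 was called by edgeR, against 2.00% of all identifiers, and 16 (22.9%, 9 higher and 7 lower) had an unadjusted p below 0.05, against 16.5% of all identifiers. Among 16 genes of SREBP1 and fatty acid synthesis, 10 had a positive log2 fold change. Elovl5, the elongase of polyunsaturated fatty acids, was called higher. The values were 138, 136 and 147 CPM in Con and 197, 182 and 169 CPM in Van. All 3 Van values were higher than all 3 Con values. The log2 fold change was 0.38 ± 0.07 (SE), with an edgeR adjusted p of 0.037 (unadjusted 5.0e-04), but in each fit without 1 library the adjusted p was over 0.05, between 0.052 and 0.148. In the same list, Scd1, the desaturase that makes oleate, had a log2 fold change of -0.89 (edgeR adjusted p = 0.122), and Acss2, which makes acetyl-CoA from acetate, one of -0.57 (edgeR adjusted p = 0.151). These were the 2 of 16 genes with lower values in Van and groups that did not overlap, against 11.0% of all identifiers. For Acss2 the groups were barely apart, with 28.96 CPM in Con 1 and 28.83 CPM in Van 1.

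Of the 16 genes of uptake, esters and sterol transfer, 15 were tested, and 8 had positive and 7 negative log2 fold changes. Gramd1b, which moves cholesterol from the plasma membrane to the endoplasmic reticulum, had 41.7, 39.6 and 41.6 CPM in Con and 49.3, 48.9 and 49.0 CPM in Van. The groups were well apart, at a log2 fold change of 0.26 (edgeR adjusted p = 0.062). Lipa, the lysosomal acid lipase that frees cholesterol from esters, had 298, 362 and 371 CPM in Con and 257, 283 and 257 CPM in Van. All Van values were lower, at a log2 fold change of -0.37 (edgeR adjusted p = 0.077). With single libraries left out, the edgeR adjusted p of Lipa lay between 0.036 (without Con 1) and 0.250. Of the 14 further LXR targets and partners, 13 were tested and 9 had a positive log2 fold change. Rxrb, a partner of LXR, had one of 0.28 (edgeR adjusted p = 0.074), and Smpdl3a, placed on this list as a target, one of -0.15 (edgeR adjusted p = 0.257). Whether LXR switches on Smpdl3a in these mouse cells was not tested.

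Among the 12 genes that process or degrade the SREBP complex, 7 had positive and 5 negative log2 fold changes. Mbtps2, the site-2 protease that releases SREBP, had one of -0.26 (edgeR adjusted p = 0.212), and Sec24d, of the coat that carries SCAP, one of 0.25 (edgeR adjusted p = 0.271). The 14 tested genes of the other isoprenoid and sterol branches held 7 higher and 7 lower genes. In that list, Acat1, the mitochondrial thiolase, had a log2 fold change of -0.31 (edgeR adjusted p = 0.088) and Dhdds, of dolichol synthesis, one of 0.26 (edgeR adjusted p = 0.125).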

How the data were processed

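The authors aligned reads of stranded poly(A) libraries to GRCm38 with HISAT2 2.2.1 and SAMtools 1.9 and assembled them with StringTie 2.1.3, per the labels. The deposited estimated counts carry no scaling to library size and most often fall on steps that a read length of 75 bases gives, shorter than a fragment's paired reads, so that they overstate fragments (about 0.375 fragments per count), and the deposited FPKM values were scaled by the authors to the length of transcripts and the size of the library. The annotation release and the handling of strand and of reads with several matches are not given in the sources used here. Estimated counts were rounded, and edgeR 4.0.16 under R 4.3.3 was run with TMM, the quasi-likelihood test and its expression filter (minimum count of 10), with no term other than group. Adjustment was by Benjamini-Hochberg over all 16138 identifiers tested, with calls at adjusted p-values up to 0.05. DESeq2 1.42.0, limma 3.58.1 on log2(FPKM + 1) or log2(FPKM + 0.1), other normalizations and filters, the fragment scale (counts multiplied by 0.375), a single identifier per symbol, the replicate number as a block and each library left out were the alternatives. Exact two-sided permutation tests used CPM. The edgeR and DESeq2 steps were tested on simulated data. P-values measure the spread between 3 libraries per group. The 34 genes, the further lists, the motifs and the rule for naming genes were chosen with earlier results of these data known. By that rule, all 6 values were given for 14 control and pathway genes, and for each of the 34 genes with an unadjusted p below 0.05 or with groups that did not overlap. From the further lists and markers, genes called and at most 2 more with the smallest unadjusted p below 0.05 were named, except for 1 marker that is not reported here. Coordinates are from GENCODE M21, which holds 98.0% of the identifiers, and near-identical genes share at least 200 bases at 95% identity.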

Additional observations from a re-analysis of the deposited data

How the results depend on the processing

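The alternatives moved how many genes were called more than they moved the fold changes. DESeq2 called 962 identifiers in place of 322, limma 24 on log2(FPKM + 1) and 0 on log2(FPKM + 0.1), and fits without 1 library between 21 and 136. Of the 34 cholesterol genes, DESeq2 called 5, the filter of at least 10 counts in every library 2 (Scap and Abcg1), library size alone, no filter and the fragment scale 1 each (Abcg1), and fits without 1 library between 0 and 1. The number with an unadjusted p below 0.05 was 5 with limma on log2(FPKM + 0.1) in place of 10, and without 1 library it was between 5 (without Con 3 or Van 3) and 15 (without Con 2 or Van 1). With the replicate number as a replicate block, 110 identifiers, none of the 34 genes and 0 genes of the further lists were called, and 11 of the 34 genes had an unadjusted p below 0.05. Deviations of libraries with the same number correlated at 0.08, -0.04 and -0.18, so the numbers do not pair the libraries. Of the further lists, DESeq2 called 8 genes in place of 1, limma 0 with both pseudocounts, and fits without 1 library between 0 and 1. Of the markers, DESeq2 called 18 in place of 8, limma 0 with both pseudocounts, and fits without 1 library between 0 and 6. The sign of the log2 fold change was kept in all 16 alternatives for 26 of the 34 genes. With 1 library left out, the log2 fold change lay between -0.47 and 0.034 for Mvk (positive without Van 2), between -0.055 and 0.17 for Pmvk (negative without Con 2 and without Van 1, at -0.016 and -0.055), between -0.27 and 0.063 for Lss (positive without Con 3 and Van 3) and between -0.12 and 0.11 for Dhcr7 (positive without Con 1 and Van 3). It lay between -0.060 and 0.024 for Insig2 (positive without Con 2, and at 0.012 and 0.014 with limma on log2(FPKM + 1) and log2(FPKM + 0.1)), between -0.059 and 0.21 for Abca1 (negative without Con 2 and Van 2), between -0.0042 and 0.28 for Apoe (negative without Van 2) and between -0.065 and 0.059 for Npc1 (positive without Con 1, Van 1 and Van 2). Npc1 was also positive with library size alone (0.0018) and with no filter (0.00097). The cause of these changes was not tested, except that fits without a library rest on fewer samples. Each of the 34 genes had at least 141 counts (about 53 fragments) in each library, and how far depth limits differences of this size was not tested.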
